A study of Mus musculus with 6 samples.

Results

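miR-143 and miR-145 are microRNAs (miRNAs), small RNAs that silence mRNAs they pair with, and their hairpins lie next to each other on 1 transcript. In adult mice both are best known from smooth muscle of vessels and gut, where serum response factor and myocardin raise their transcription. They repress KLF4 and ELK1, factors of proliferating smooth muscle, and are known for keeping smooth muscle cells contractile. A hairpin gives a 5p and a 3p strand, its arms. The 3p arm of miR-143 and the 5p arm of miR-145 are the strands usually studied as the active ones. All 4 arms of both hairpins, mmu-miR-143-5p, mmu-miR-143-3p, mmu-miR-145a-5p and mmu-miR-145a-3p (mmu marks a mouse miRNA), were taken by name from the 2009 miRNA names of the table, and all 4 passed the filter on low values, as did 409 names in all.

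The libraries came from male mouse hearts perfused on a Langendorff apparatus, in which an isolated heart is supplied through its aorta. In 3 libraries, labelled as 30 min of ischemia, a lack of flow to the tissue, with 1 h of reperfusion after it (ischemia-reperfusion, I/R), the heart was arrested with Tomas cardioplegia, a solution that stops contraction. In the other 3, labelled Sham, the perfused heart was not stopped. Perfusion outside the body is therefore shared by both groups, and the labels give neither strain nor age. The labels number biological replicates 1 to 3 per group without saying that each is a separate animal, so p-values measure the spread between these libraries. The extract protocol names poly(A) mRNA kits, while the titles name miRNA sequencing.

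Reads assigned to miRNA names totalled 7874103 to 8196102 in I/R libraries and 8099411 to 9197869 in sham libraries. Levels are given as reads per 1000000 reads (RPM), and 3 reads correspond to 0.326 to 0.381 RPM. Intervals on reads cover counting error only. As a check of the tissue, 4 cardiomyocyte miRNAs held 35.8% to 38.3% of the reads in I/R libraries and 38.5% to 39.0% in sham libraries, and 2 endothelial arms of miR-126a held 2.58% to 3.18% and 2.49% to 2.75%. Leukocyte markers (4 of 4 passing the filter) held 0.00868% to 0.00890% in I/R and 0.00771% to 0.0103% in sham libraries. Red blood cell markers held 0.000165% to 0.000526% and 0.000333% to 0.000696%. Of these, 3 of 3 had reads in at least 1 library, but only 1 passed the filter. In such bulk tissue, fewer cells of a type and less RNA per cell cannot be told apart.

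Both hairpins lie on the minus strand of chromosome 18 in GRCm38. That of miR-143 spans 61649196 to 61649258 and that of miR-145a, downstream of it in the direction of transcription, spans 61647825 to 61647894, with 1301 bases between them. In GENCODE M21 neither overlaps another gene, and the lincRNA Carmn, known from smooth muscle, ends 366 bases upstream of miR-143. In RefSeq's annotation of the same build, Carmn spans 61645878 to 61665538 and so covers both hairpins.

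mmu-miR-143-3p was by far the most abundant arm. It stood at 41088, 41617 and 49735 RPM in I/R replicates 1 to 3, against 35533, 46661 and 38005 RPM in sham replicates 1 to 3. The groups overlapped, since sham replicate 2 lay above I/R replicates 1 and 2, and the highest library was I/R replicate 3. It was the fourth most abundant name in each of the 6 libraries. This place held beyond the spread between libraries: in each library it lay below miR-99a-5p, at 0.432 to 0.639 of that level, and above the endothelial miR-126a-3p, at 1.46 to 1.73 times that level.

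miR-145a was lower, and its 3p arm held most of its reads. mmu-miR-145a-3p was at 959, 941 and 1114 RPM in I/R libraries and at 1002, 883 and 990 RPM in sham libraries. The groups overlapped, with the highest value in I/R replicate 3 and the lowest in sham replicate 2. By mean level it ranked 47 of all names, and its neighbours in that order, miR-378d and miR-185-5p, were higher than it in some libraries and lower in others.

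mmu-miR-145a-5p, the arm best known from smooth muscle, was at 39.7, 41.8 and 37.8 RPM in I/R libraries and at 32.6, 78.0 and 40.4 RPM in sham libraries. A single library, sham replicate 2, stood far above the rest with 690 reads, against 298 to 342 reads in the I/R libraries and 300 and 327 in the other sham libraries. The 95% exact Poisson interval of sham replicate 2 ran from 72.3 to 84.0 RPM and met none of the other libraries' intervals, of which the highest bound was 46.5 RPM. Within the sham group the SD of log2(RPM + 1) was 0.64 for this arm. Of the 232 names with a mean of at least 10 RPM, 4 had a larger sham SD, and the median was 0.15. Within I/R libraries its SD was 0.07, against a median of 0.14.

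mmu-miR-143-5p was the scarcest of the arms and the steadiest. It was at 20.1, 21.0 and 19.8 RPM in I/R libraries and at 24.1, 24.1 and 22.7 RPM in sham libraries. All I/R values lay below all sham values, as was so for 3.91% of the 409 names tested. The reads behind the values of miR-143-5p numbered 156 to 172 in I/R and 184 to 222 in sham libraries. Coefficients of variation of 3.11% in I/R and 3.39% in sham libraries were smaller than the 7.80% and 6.96% that counting error alone gives, and each I/R interval overlapped each sham interval. By mean level it ranked 182, and its neighbours miR-19b-3p and let-7b-3p did not differ from it beyond the spread between libraries.

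**Figure D1:**
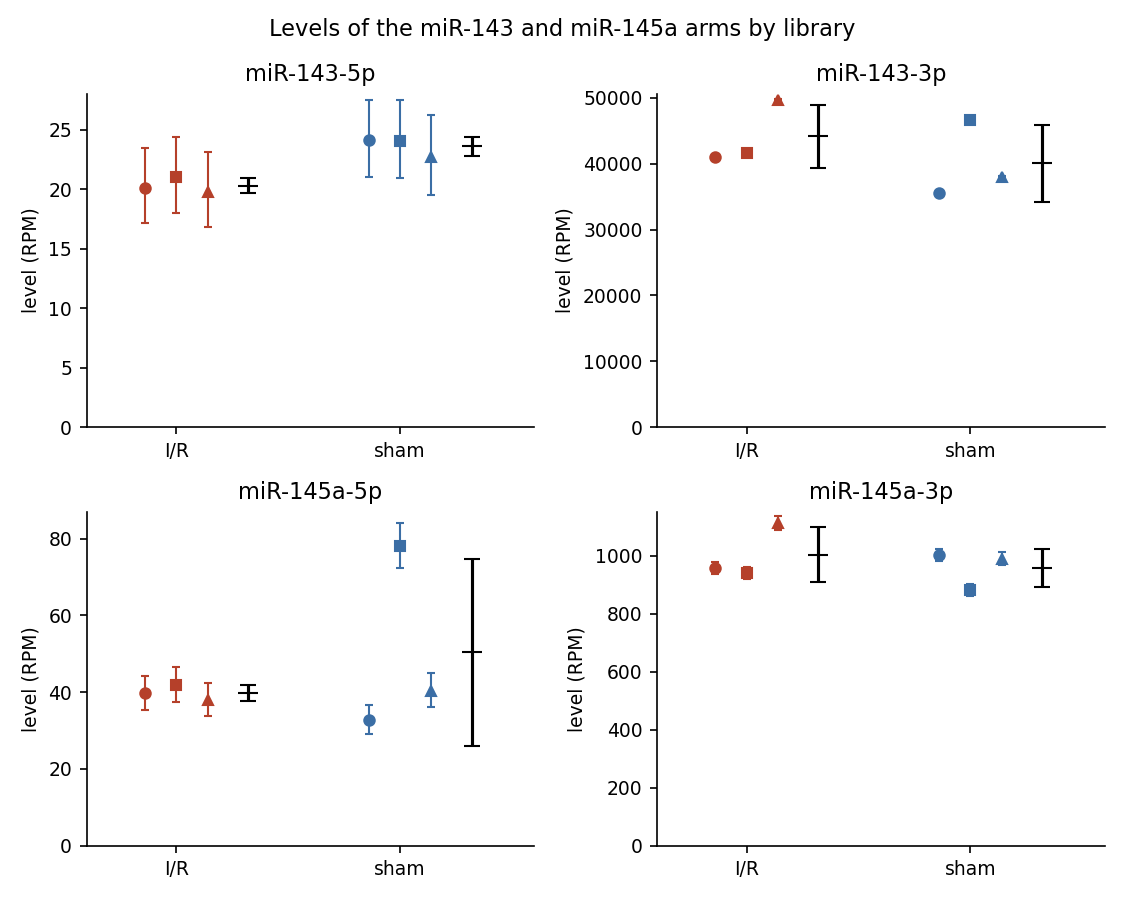
Levels in RPM of each arm, with I/R libraries in red and sham libraries in blue (circle, square and triangle for replicates 1, 2 and 3, bars for 95% exact Poisson intervals of the reads) and the group mean ± SD in black (n = 3 each). Sham replicate 2 stands apart for miR-145a-5p at 78.0 RPM. The groups are separate for miR-143-5p, at 19.8 to 21.0 RPM in I/R and 22.7 to 24.1 RPM in sham libraries. Groups were separate in this direction for 3.91% of the 409 names tested.

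The arms of each hairpin were held in very unequal amounts. For miR-143 there were 2041, 1979 and 2510 reads of the 3p arm for each read of the 5p arm in I/R libraries, against 1472, 1938 and 1673 in sham libraries. The 3p arm made up 99.95% of the hairpin's 2117315 reads over all libraries (95% Wilson interval 99.94% to 99.95%). That interval covers counting error of pooled reads only, and single libraries ran from 99.93% to 99.96%. Among 94 precursors with both arms above the filter, 38 had more 3p than 5p signal, and miR-143 lay farthest toward the 3p arm. For miR-145a there were 24.2, 22.5 and 29.4 reads of the 3p arm per read of the 5p arm in I/R libraries, and 30.7, 11.3 and 24.5 in sham libraries. Its 3p arm made up 95.6% of 51656 pooled reads (95% Wilson interval 95.4% to 95.8%), and it ranked 18 of the 94 toward the 3p arm. Single libraries ran more widely, from 91.9% in sham replicate 2 to 96.8% in sham replicate 1. In every library the 3p arm of miR-145a, which is usually treated as the minor strand, thus outnumbered the 5p arm, least so in sham replicate 2. The arms are given as the table names them: how reads were assigned to arms is not stated, and neither this nor the library preparation could be checked from the table, so these ratios may not be those of the tissue.

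A shift of a hairpin's strands against each other between the groups was tested next, as arm balance. It was taken as the log2 ratio of 5p to 3p after adding 1 RPM to each arm, which shifts the scarce arm most. For miR-143 it was -10.93, -10.88 and -11.22 in I/R libraries and -10.47, -10.86 and -10.65 in sham libraries. The I/R values lay below the sham values, a difference of -0.35 (SE 0.13, 95% interval -0.65 to -0.06) that did not pass limma's test over all precursors (unadjusted p = 0.0241, adjusted p = 0.452). The closest libraries of the groups, I/R replicate 2 and sham replicate 2, differed by little. Groups did not overlap in 11 of the 94 precursors (11.7%), 6 of them toward the 3p arm (6.38%), and 0 passed (0%), with 6 at an unadjusted p under 0.05 (6.38%). For miR-145a the arm balance was -4.56, -4.46 and -4.84 in I/R libraries and -4.90, -3.48 and -4.58 in sham libraries, which overlapped. The difference was -0.30 (SE 0.33, limma adjusted p = 0.898) with all libraries and 0.12 (adjusted p = 0.991) without sham replicate 2.

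**Figure D2:**
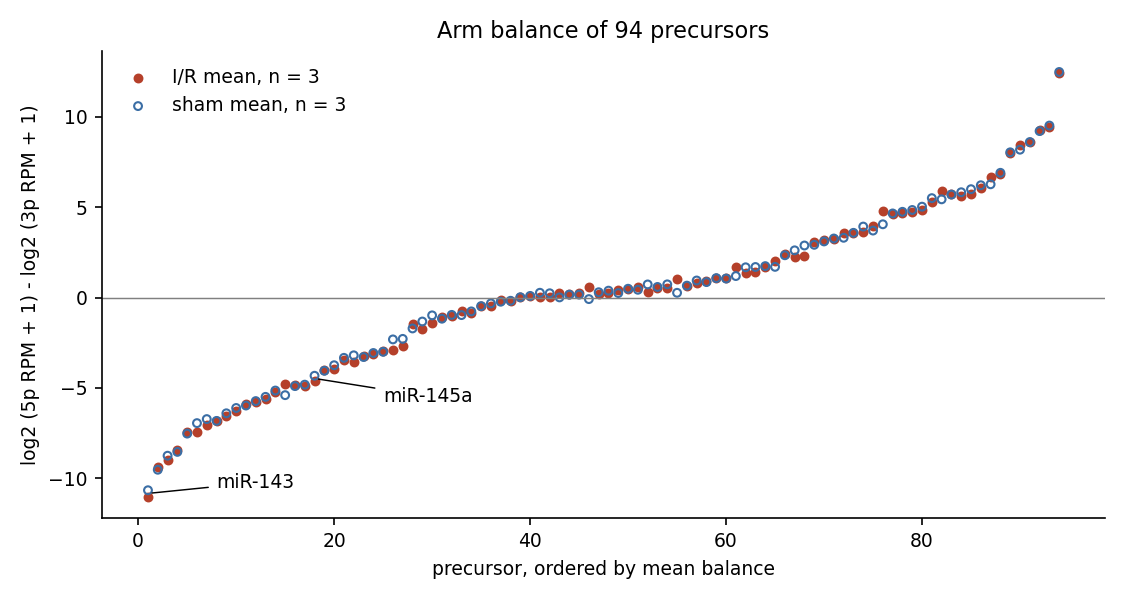
Arm balance as log2(5p RPM + 1) minus log2(3p RPM + 1) for 94 precursors in order of their mean, with filled red points for the I/R mean and open blue points for the sham mean (n = 3 each). miR-143 lies at the 3p end, with means of -11.01 in I/R and -10.66 in sham libraries, and miR-145a is at -4.62 and -4.32.

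Arrested and reperfused hearts were then compared with sham hearts for the level of each arm. Of the 4 arms 0 passed limma's test on log2(RPM + 1), beside 0 of 409 names higher and 0 lower (0% each way). The log2 fold change of miR-143-3p was 0.14 (SE 0.11, 95% interval -0.11 to 0.40, adjusted p = 0.678), with means of 44146 ± 4847 RPM in I/R and 40066 ± 5843 RPM in sham libraries (SD, n = 3 each). For miR-143-5p it was -0.21 (SE 0.13, interval -0.49 to 0.08, adjusted p = 0.661), with means of 20.3 ± 0.63 and 23.6 ± 0.80 RPM in I/R and sham libraries. Its groups did not overlap, as was so for 16 of the 409 names on the lower side (3.91%) and 46 on the higher side (11.2%). The differences of these arms of 1 hairpin thus pointed opposite ways, and neither passed the test.

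For miR-145a-5p the log2 fold change was -0.23 (SE 0.28, interval -0.86 to 0.39, adjusted p = 0.798), with means of 39.8 ± 1.99 RPM in I/R and 50.3 ± 24.3 RPM in sham libraries. Its sign rested on sham replicate 2, without which the value was 0.13 (adjusted p = 0.734). For miR-145a-3p it was 0.07 (SE 0.10, interval -0.17 to 0.30, adjusted p = 0.820), with means of 1005 ± 95.1 and 958 ± 65.9 RPM, and it turned below 0 under every other scaling of the libraries tried and without I/R replicate 3. On this scale, which understates the change of scarce names, the 4 intervals with all libraries excluded changes of 2-fold or more. For miR-145a-5p this did not hold without sham replicate 1, where the log2 fold change was -0.49 (SE 0.25). A 2-fold drop of this arm was also not clearly excluded in 2 further fits with a library left out. These were without sham replicate 3 (-0.34, SE 0.32) and without I/R replicate 2 (-0.27, SE 0.33).

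At an unadjusted p under 0.05 limma had 29 names higher (7.09%) and 1 lower (0.244%), and 0 of the 4 arms were among them, since their smallest unadjusted p was 0.130. On the recovered reads edgeR made 0 calls and DESeq2 made 2, of miR-5103 and miR-6240. With the replicate number as a block limma called 4 names higher (0.978%) and 0 lower, which were miR-5103, miR-6240, miR-3968 and miR-3963. These names were chosen after their values were seen, and none is a member of the cluster, whose adjusted p with the block was 0.543 to 0.799. The fold changes of all 409 names had a median of 0.10, and TMM scaling moved that median by -0.11. The median over the 4 arms was -0.07, with 2 positive and 2 negative values.

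**Figure D3:**
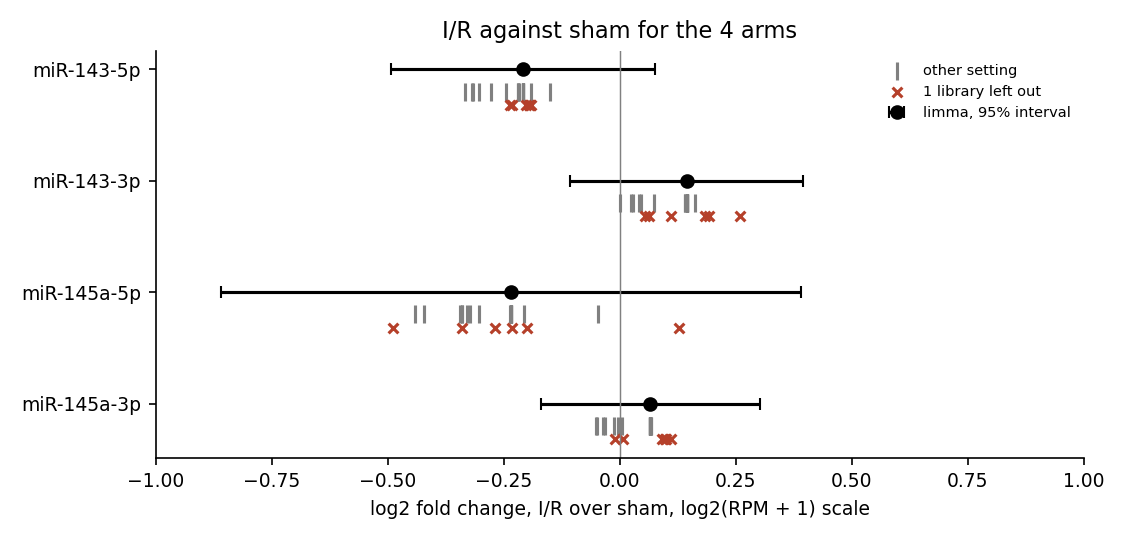
Log2 fold change of I/R over sham for each arm, on the log2(RPM + 1) scale, with limma's estimate and 95% interval in black, other settings as grey ticks and fits with 1 library left out as red crosses. All 4 intervals span 0, and the red cross above 0 for miR-145a-5p is the fit without sham replicate 2, at 0.13.

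Because both hairpins come from 1 locus, their levels were set against each other within each library. The log2 ratio of miR-143-3p to miR-145a-5p was 10.02, 9.96 and 10.36 in I/R libraries and 10.09, 9.22 and 9.88 in sham libraries. The groups overlapped, and the difference of 0.38 gave a two-sided exact permutation p = 0.3 (adjusted p = 0.5 over 5 such tests), and with 3 libraries a group such a p cannot go below 0.1. Without sham replicate 2 the difference was 0.13, and it was 0.26 without I/R replicate 3 and 0.56 at most with any other library left out. The ratio of the 3p arms, compared after the values were seen because each is the more abundant arm here, was 42.9, 44.2 and 44.6 in I/R libraries and 35.5, 52.9 and 38.4 in sham libraries. The I/R values lay close together in the middle of the sham range, with sham replicate 2 highest, and the log2 difference was 0.08 (exact permutation p = 0.7). Counting both arms of each hairpin, miR-143 exceeded miR-145a 41.2, 42.3 and 43.2 times in I/R libraries and 34.4, 48.6 and 36.9 times in sham libraries. Like the arm ratios within a hairpin, these ratios between hairpins may not be those of the tissue.

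The 4 arms together held 4.21%, 4.26% and 5.09% of the reads in I/R libraries and 3.66%, 4.76% and 3.91% in sham libraries, of which miR-143-3p made up 97.1% to 97.9%. The sum was 0.41 percentage points higher in I/R (4.52 ± 0.49% against 4.11 ± 0.58%, SD, n = 3 each), with overlapping groups and exact permutation p = 0.4 (adjusted p = 0.5). That difference was 0.13 percentage points without I/R replicate 3, 0.19 without sham replicate 1 and 0.74 without sham replicate 2. The summed cardiomyocyte miRNAs, mostly miR-1a-3p, did not overlap between the groups (35.8% to 38.3% against 38.5% to 39.0%). Of the 4 names summed, only miR-1a-3p was separate by itself, on the lower side, as were 3.91% of all names tested. Its log2 fold change was -0.06 (limma adjusted p = 0.661). The part of this sum in the difference of the smooth muscle share, whose groups overlapped, was not tested. Without the reads of miR-1a-3p and miR-1b-5p in the total, the 4 arms held 9.98 ± 0.69% in I/R and 9.56 ± 1.28% in sham libraries (exact permutation p = 0.6). Of these names, miR-1b-5p was not part of the cardiomyocyte sum.

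Ratios of the cluster to markers of other heart cells were then compared. The log2 ratio of the 4 arms to the endothelial miR-126a arms was 0.68 ± 0.02 in I/R and 0.65 ± 0.13 in sham libraries, a difference of 0.03 (exact permutation p = 0.8, adjusted p = 0.8). That difference was -0.01 without sham replicate 1, 0.0075 without sham replicate 3 and 0.10 without sham replicate 2. Against the cardiomyocyte miRNAs the log2 ratio was -3.05 ± 0.20 in I/R and -3.25 ± 0.21 in sham libraries, a difference of 0.20 (exact permutation p = 0.3, adjusted p = 0.5). It was 0.08 without I/R replicate 3, 0.12 without sham replicate 1 and 0.31 without sham replicate 2. Against 5 fibroblast and stromal miRNAs of the miR-199 and miR-214 hairpins it was 4.46 ± 0.08 and 4.58 ± 0.16, a difference of -0.12 (exact permutation p = 0.3, adjusted p = 0.5). It was -0.06 without sham replicate 1, -0.07 without I/R replicate 2 and -0.21 without sham replicate 3. The groups overlapped in all 3 ratios.

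The arms did not follow each other closely across the libraries. Over the 6 libraries, Pearson's r of log2(RPM + 1) between miR-143-3p and miR-143-5p was -0.45, and between the arms of miR-145a it was -0.70. Between the 3p arms it was 0.14 and between miR-143-3p and miR-145a-5p it was 0.51. These are descriptions of 6 libraries that share a scaling to equal totals. miR-143-5p rests on 156 to 222 reads and varied within groups by less than counting error, so its r says little. For miR-145a, sham replicate 2 was the highest library of the 5p arm and the lowest of the 3p arm. Among 228 other names with a mean of at least 10 RPM, those most like miR-143-3p were miR-24-3p (r = 0.963), miR-542-3p (0.957) and miR-3074-5p (0.954), all with their highest I/R level in replicate 3 and their highest sham level in replicate 2. miR-24-3p stood at 5177, 5430 and 5945 RPM in I/R libraries and at 4807, 5534 and 4833 RPM in sham libraries. In each library miR-3074-5p held nearly the same number of reads as miR-24-3p, so miR-24-3p and miR-3074-5p are uncertain taken singly. Whether the same reads were counted under both names was not tested.

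The names most like miR-145a-5p were let-7e-5p (r = 0.969), miR-23a-3p (0.966) and the muscle miRNA miR-133a-3p (0.951), and each of them also had its highest level in sham replicate 2. Since that library dominates the profile of miR-145a-5p, the choice by r favours names with this peak. miR-23a-3p was at 84.6, 96.7 and 85.2 RPM in I/R libraries and at 73.2, 136 and 79.5 RPM in sham libraries, and miR-133a-3p was at 1006, 952 and 798 RPM and at 902, 1798 and 993 RPM. The names most like miR-145a-3p were miR-486a-5p (r = 0.986), miR-486a-3p (0.986) and miR-486b-5p (0.983), from hairpins of 1 locus best known in red cells and muscle, whose reads are uncertain taken singly. miR-486a-5p was at 1441, 1426 and 1791 RPM in I/R libraries and at 1596, 1287 and 1484 RPM in sham libraries, with the lowest value, as for miR-145a-3p, in sham replicate 2. The names most like miR-143-5p were let-7a-5p (r = 0.938), let-7f-5p (0.925) and miR-133a-5p (0.868), all lower in every I/R library than in any sham library, as 3.91% of the names tested were. They were chosen for likeness to an arm whose groups are separate in that direction, so this follows from the choice. Of these 12 likenesses none had a fold change that passed limma's test, with adjusted p of 0.628 to 0.935.

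**Figure D4:**
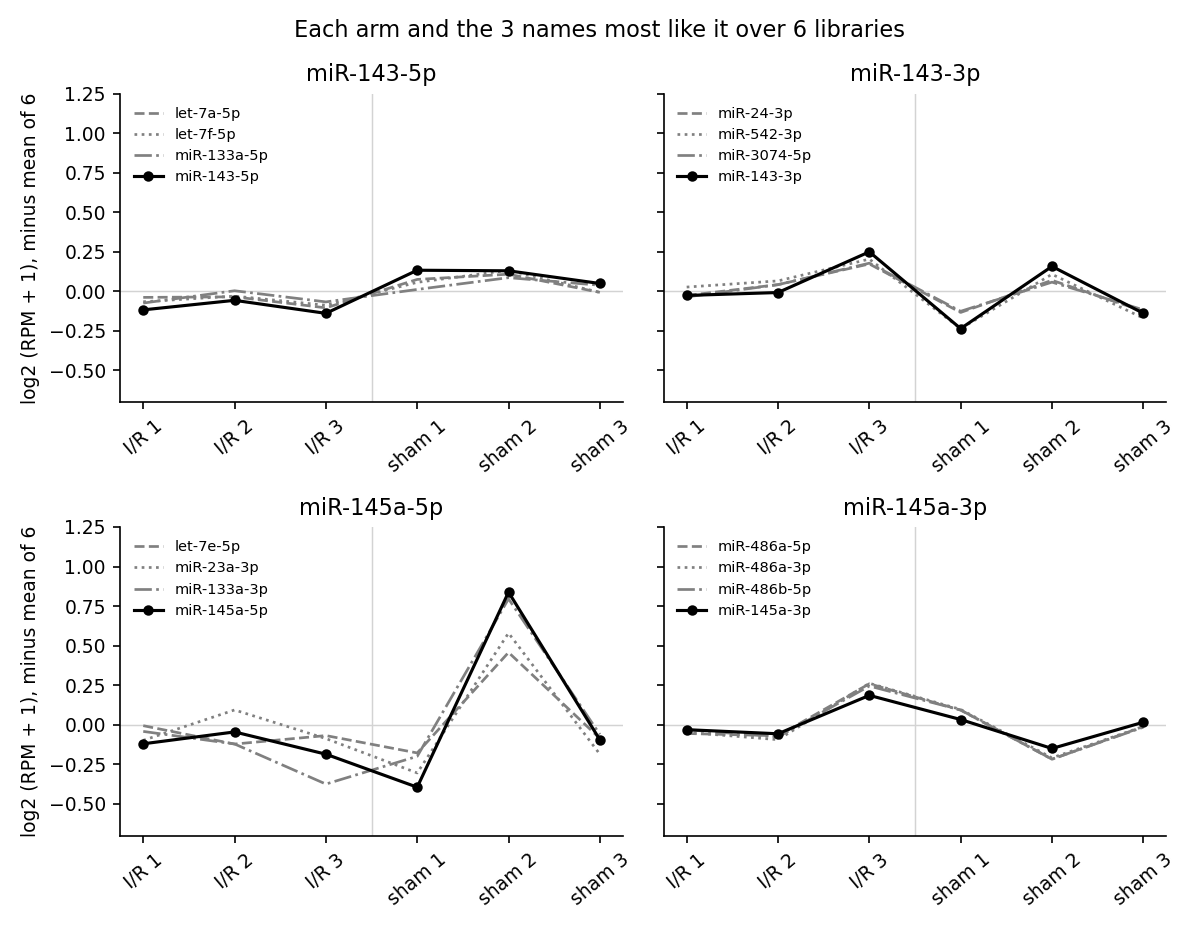
Log2(RPM + 1) of each arm (black) and of the 3 names most like it (grey) as the deviation from the mean of the 6 libraries, I/R libraries left of sham libraries, with lines joining the points for reading only. miR-145a-5p, let-7e-5p, miR-23a-3p and miR-133a-3p all peak in sham replicate 2, where miR-145a-3p and the miR-486 names are lowest.

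A list of 18 other miRNAs studied in smooth muscle growth or contraction showed no common direction. All 18 were tested, 9 had positive and 9 negative fold changes, 0 passed limma's test and in 0 did the groups not overlap, beside 15.2% of all names. The median log2 fold change of the list was -0.01, against 0.10 for all names tested. miR-21a-5p, known for promoting smooth muscle proliferation, was at 22550, 24452 and 29109 RPM in I/R libraries and at 18965, 22910 and 22889 RPM in sham libraries (log2 fold change 0.23, SE 0.11, adjusted p = 0.598). miR-221-3p and miR-222-3p, which repress the cell-cycle inhibitor p27 and favour proliferation, were at 62.3 ± 2.59 and 35.1 ± 4.55 RPM in I/R, against 60.4 ± 7.65 and 28.7 ± 3.23 RPM in sham libraries. Their log2 fold changes were 0.05 and 0.28 (SE 0.13 and 0.15, limma adjusted p = 0.894 and 0.628). Both thus lay far below miR-143-3p in each group.

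A further name of the family, miR-145b, comes from a hairpin elsewhere on chromosome 18, at 69022199 to 69022273 on the minus strand. It held 3, 4 and 3 reads in I/R libraries and 5, 2 and 3 reads in sham libraries, which is 0.366 to 0.489 RPM and 0.226 to 0.544 RPM. At this depth it lay at the limit of detection in both groups and was not tested.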

How the data were processed

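Per mature miRNA name and library the deposited file holds 1 signal value, called FPKM in its name. The submitters' processing notes name bcl2fastq 2.19.1.403, fastp 0.23.0 and mm10; the aligner, the miRNA annotation and how reads with several matches were counted are not stated there. Tested on the values, each deposited signal column had the same total and 100% of values were whole multiples of its smallest value (tolerance 0.01 reads), so whole reads were recovered and RPM computed. The design had assumed FPKM, and the log-scale test was kept.

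Levels as log2(RPM + 1) were fitted in limma 3.58.1 (R 4.3.3) with a trend of variance on level, for names averaging 1 RPM or more and above 0 in at least 3 libraries, and for arm balance on the log2 ratio of arms. P-values are two-sided and Benjamini-Hochberg adjusted over the whole table, with a threshold of 0.05. edgeR 4.0.16 (calling 0 names) and DESeq2 1.42.0 (calling 2) were run on the recovered reads. Single values used exact permutation tests (scipy 1.17.1). The fits were run on simulated reads in which all names shared the same spread beyond counting error. Of names given a log2 change of 2 or of 1 in either direction, the level fit called 99% and 94%. It called 3.83% of unchanged names. This does not cover names of wider spread, such as miR-145a-5p in sham libraries, and no outcome was summarized for arm balance. Lengths were not needed, since the table divides all names by 1 constant. No source mentions molecular identifiers.

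Named miRNAs were the cluster, its neighbours in level, the 3 names with the highest Pearson's r per arm, and the marker and smooth muscle lists. Members and lists were chosen with earlier results of these data known. Deviations from group means correlated at 0.14, 0.28 and 0.16 between same-numbered libraries and at -0.19 to 0.07 between others. Deviations within a group cancel, so positive values in some combinations force lower ones in others. No label pairs the libraries, and whether the replicate numbers mark true pairs was not tested. Alternatives were the pseudocount, filter, scaling, limma options, count models, the replicate block and each library left out.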

Additional observations from a re-analysis of the deposited data

How the results depend on the processing

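Counts of called names were 0 in limma and under 17 of 22 alternatives. They were 1 without a filter, 2 in DESeq2 with library totals and 2 with its own size factors, 4 with the replicate block, and 0 to 1 with a library left out, the 1 being miR-27a-5p without sham replicate 2. The block changed no other call. Called precursors numbered 0 under 13 of 14 alternatives and 0 to 1 with a library left out, the 1 being miR-27a without sham replicate 2. No setting called a member of the cluster. The log2 fold change of miR-143-3p was positive under 21 of 22 alternatives, from 0.02 to 0.26, and exactly 0 with quantile normalization, which gives a name of equal rank in all libraries 1 value; with a library left out it was 0.06 to 0.26. That of miR-143-5p was negative under all 22, from -0.33 to -0.15. miR-145a-5p ranged from -0.49 to 0.13 with a library left out and was positive only without sham replicate 2. miR-145a-3p was -0.033 with median-ratio scaling, -0.048 with TMM, -0.0046 with totals without the 10 most abundant names, -0.012 with quantile normalization, -0.052 in edgeR with TMM, -0.037 in DESeq2 with its own size factors, and -0.010 to 0.11 with a library left out. The cause was not tested. Arm balance was -0.45 to -0.25 for miR-143 under 14 alternatives, with adjusted p of 0.126 to 0.667, and -0.59 to 0.12 for miR-145a with a library left out. With a library left out, the log2 ratio of miR-143-3p to miR-145a-5p differed by 0.13 to 0.56, the sum of the arms by 0.13 to 0.74 percentage points, and the ratios to endothelial, cardiomyocyte and fibroblast markers by -0.015 to 0.10, 0.08 to 0.31 and -0.21 to -0.06. With 3 pairs taken by replicate number, an exact sign-flip test cannot go below 0.25. The edgeR fit with TMM, DESeq2 with its own size factors and the ratio of the 3p arms were added after seeing the data. The planned sums over miRNAs of equal seed were not run. Depth limits miR-143-5p, with 156 to 222 reads, and miR-145b, with 2 to 5 reads.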

Other observations

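The 4 names with a larger spread than miR-145a-5p among the sham libraries were miR-27a-5p, miR-132-3p, miR-6390 and miR-133b-3p, chosen after their values were seen. miR-27a-5p was at 207, 240 and 193 RPM in I/R libraries and at 84.4, 226 and 98.4 RPM in sham libraries. miR-132-3p was at 20.4, 23.4 and 23.6 RPM in I/R and at 18.4, 41.1 and 16.2 RPM in sham libraries, and miR-133b-3p, a muscle miRNA, at 31.8, 27.3 and 21.0 RPM and at 24.7, 55.9 and 24.0 RPM. These 3 had their highest sham level in replicate 2, as miR-145a-5p did, while miR-6390 had its lowest sham level there, at 8.93 RPM.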
